A study of Homo sapiens with 9 samples.

Results

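The 3 libraries numbered replicate 1 were set against the 6 libraries numbered replicate 2 or 3, of 9 libraries in all. They were chosen by the replicate number in the sample titles, so that each set holds every siRNA label: replicate 1 has 1 library for each of the 3 labels, and the other set has 2 for each. The siRNA label was a covariate in every fit. The cells were ALL-SIL, an established human line of T-ALL (acute lymphoblastic leukaemia of the T lineage) in which the homeobox oncogene TLX1 is active. Every culture received a small interfering RNA (siRNA) by electroporation: TLX1 siRNA1, TLX1 siRNA2 or the NTC siRNA. They were grown in RPMI with 20% fetal bovine serum, and polyadenylated RNA was sequenced with a kit that does not mark strand. The labels do not say whether a replicate number stands for a culture, a day or a batch. The p-values therefore measure the spread between these libraries, which may be partly technical. Replicate 1 is a single replicate number, and same-numbered libraries deviated together. The gene tests treat its 3 libraries as independent, so their p-values are too small and their call counts too large for replicate numbers in general.

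In T-ALL, TLX1 and the related gene TLX3 are each switched on in separate subtypes, and loss of the CDKN2A tumour suppressor locus is frequent. Transcript levels in a growing line also follow the cell cycle: cyclins D and E act on entry into S phase, which E2F factors drive, and cyclin B acts in mitosis. Replicate libraries of 1 treatment give the spread against which a knockdown is read.

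Gene counts ranged from 58305492 to 99524663 per library. TLX1 was 406 CPM (counts scaled to a fixed library total with normalization factors) in the siRNA1, 198 in the siRNA2 and 184 in the NTC library of replicate 1. In the 6 others its lowest value was 167, the median 207 and the highest 457 CPM. TLX1 was highest in the siRNA1 libraries in all 3 replicates (406, 457 and 387 CPM), which goes against their label, so the call counts are also given without them. Between replicate 1 and the other libraries TLX1 did not pass the test (log2 fold change -0.01, SE 0.09, adjusted p = 0.952 with edgeR's quasi-likelihood test).

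Replicate 1 stood apart from both other replicate numbers on the first principal component of log2 CPM. This component held 31.8% of the variance. The 3 replicate 1 libraries scored between -35.0 and -30.8, and the 6 others between 14.3 and 18.2. The second component, with 19.6%, put replicate 2 below and replicate 3 above 0. In a split of the sums of squares, replicate 1 against the others took 31.7%, replicate 2 against replicate 3 took 18.8% and the siRNA label 23.8%. The share for replicate 1 was thus larger than that of the treatment labels.

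**Figure D1:**
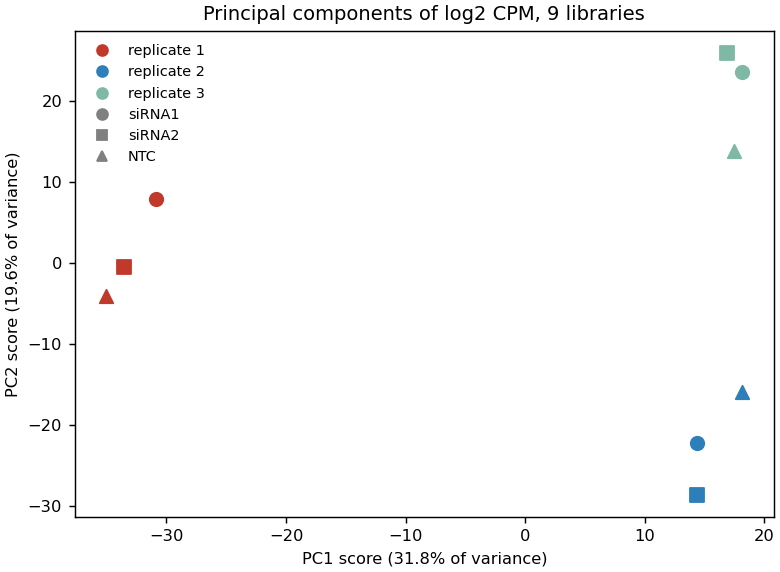
Scores of the 9 libraries on the first (x axis) and second (y axis) principal components of log2 CPM, with colours for the replicate number and symbols for the siRNA label. The 3 replicate 1 libraries lie at -30.8 or below on the first component and the 6 others at 14.3 or above.

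Of 18554 genes tested, 1260 (6.79%) had an adjusted p below 0.05: 625 (3.37%) were higher in replicate 1 and 635 (3.42%) lower. All 3 replicate 1 values lay above the 6 others for 1187 genes (6.4%) and below them for 1151 (6.2%). Most differences were small: 117 genes were over 2-fold higher and 147 over 2-fold lower, and the median log2 fold change of all genes was -0.01. Over 16-fold, 16 genes were higher and 5 lower. Of the 117 large increases, 114 were below a mean of 1 CPM over the 9 libraries. Of the 147 large decreases, 60 had a mean of at least 1 CPM. This mean holds 3 replicate 1 libraries and 6 others. At an equal level, a gene read mainly in replicate 1 therefore has a lower mean than one read mainly in the others. Genes near 0 counts in the 6 others passed the filter on counts only through replicate 1, so their calls are no separate support. The same holds for genes near 0 counts in replicate 1, which passed it only through the 6 others. With replicate number as a 3-level replicate block, 2022 genes were higher and 1936 lower. Without the siRNA1 libraries, 158 were higher and 182 lower.

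Replicate 1 differed from replicate 2 at 4111 genes (22.2%) and from replicate 3 at 3804 (20.5%) in that 3-level fit. These 2 comparisons share the replicate 1 libraries. For scale, replicates 2 and 3 differed from each other at 3825 genes (20.6%), but only 225 of those passed with over 2-fold, against 493 for replicate 1 and 2 and 423 for replicate 1 and 3. No gene (0%) passed the test of whether the replicate 1 difference depended on the siRNA label, with edgeR, limma-voom or DESeq2. At an unadjusted p under 0.05 there were 71 such genes with edgeR.

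**Figure D2:**
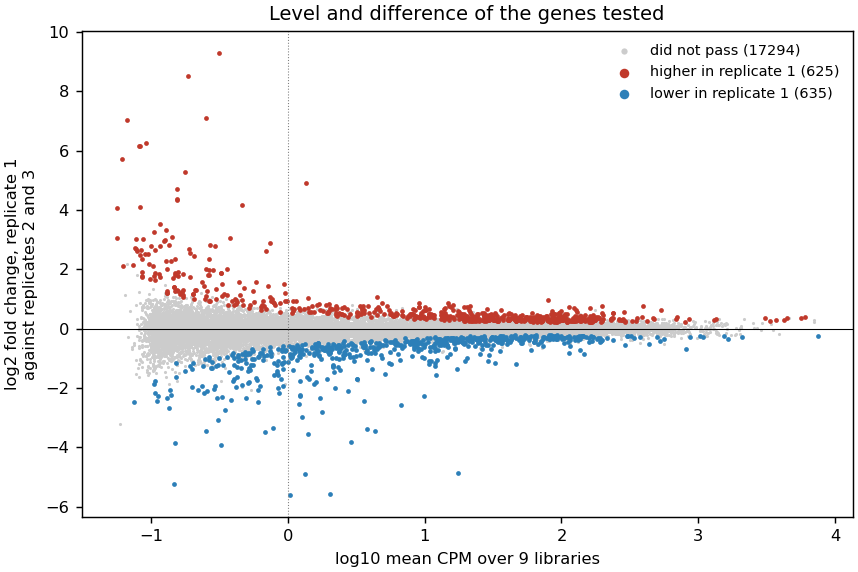
Log2 fold change of replicate 1 against replicates 2 and 3 (y axis) against the log10 mean CPM over the 9 libraries (x axis) for the 18554 genes tested, with genes that passed in red (higher, 625) and blue (lower, 635). Increases beyond 2-fold lie mostly left of the dotted line at 1 CPM.

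A set of 3 genes had at least 10 counts in each replicate 1 library and 0 counts in all 6 others, and no gene showed the reverse. CDKN2A, which encodes inhibitors of the cell cycle and of p53 breakdown, had 93, 60 and 62 counts in the siRNA1, siRNA2 and NTC libraries of replicate 1. Set against a floor of 3 counts over the 6 others, it was at least 157-fold higher in replicate 1. CDKN2A passed the filter on counts only through replicate 1 and was named for its 0 counts elsewhere, so no p-value is given. The level was low, 0.937 ± 0.079 CPM (SD, n = 3). CDKN2A lies on chromosome 9 at 21967753 to 21995301 (GRCh38), on the minus strand.

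Of the genes looked at around CDKN2A, some followed it and others did not. CDKN2B, the neighbouring cell-cycle inhibitor gene, had 5, 4 and 1 counts in replicate 1 and 0 in the 6 others. The overlapping antisense transcript CDKN2B-AS1 had 6, 3 and 2 counts in replicate 1 and 0 elsewhere. MTAP, the purine salvage enzyme gene on one side, was read in every library, at 8.47 CPM over replicate 1 and 7.08 CPM over the others. DMRTA1 on the other side was read throughout too, at 0.593 and 0.465 CPM. CDKN2A, CDKN2B-AS1 and CDKN2B thus had 0 counts in replicates 2 and 3, while MTAP and DMRTA1 were read there. CDKN2B and CDKN2B-AS1 had few counts in replicate 1 too. Reads between these genes were not examined.

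TLX3, the homeobox relative of TLX1 that acts as the oncogene of another T-ALL subtype, had 54, 41 and 33 counts in replicate 1 and 0 in all 6 others. It was at least 93.7-fold higher against the same floor, at 0.557 ± 0.032 CPM (SD, n = 3). Like CDKN2A, TLX3 passed the filter on counts only through replicate 1, so no p-value is given. TLX3 lies on chromosome 5 at 171309284 to 171312134 (plus strand). AC091980.2, an antisense gene that overlaps it, had 19, 17 and 10 counts against 0, at least 33.7-fold higher. Counting without strand cannot tell the reads of this pair apart where they overlap. RANBP17 before TLX3 had 2 counts in replicate 1 and 2 in the others, while NPM1 after it was at 1258 and 1307 CPM. NPM1 did not share the increase, and RANBP17 had too few counts to show whether it did.

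Of the 23 oncogenic transcription factor genes of other T-ALL subtypes, 7 could be tested. TLX3 rose and 1 other fell, beside 3.37% and 3.42% of all genes. That gene, TAL2, had 0.234, 0.197 and 0.205 CPM in replicate 1 and 0.48 to 0.541 CPM in the others (log2 fold change -1.22, SE 0.20, adjusted p = 0.00443, edgeR). Without the siRNA1 libraries, the list held the same counts of 1 higher and 1 lower. A further 7 members, among them NKX2-1, LMO1 and MEIS1, had 0 counts in all 9 libraries.

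Other transcripts near 0 in replicates 2 and 3 were read in each replicate 1 library. RORB, an orphan nuclear receptor, had 64, 57 and 50 counts in replicate 1 and 2 counts over the 6 others together. PTPRG, a receptor tyrosine phosphatase, had 18, 28 and 15 counts against 1. HOXD13, a homeobox gene, had 17, 10 and 14 counts against 1. These genes were named from those whose low counts separated the sets.

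The T cell receptor genes gave a further contrast of this kind. TRBV6-2, a variable segment of the beta chain, had 31, 17 and 11 counts in replicate 1 and 1 count in the 6 others. TRBJ1-6 had 14, 10 and 11 counts against 4, and TRBJ1-3 had 19, 12 and 10 against 13. Of 42 variable and joining segments tested, these 3 rose and none fell, beside 3.37% and 3.42% of all genes. All 3 passed the filter on counts only through replicate 1. Segments of 1 family are similar in sequence, so the assignment of reads between them is uncertain. In bulk RNA, a few cells with much of a transcript and many cells with little cannot be told apart.

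H1F0, a replication-independent linker histone gene, had the largest increase of the 3 genes with a mean of at least 1 CPM that were over 2-fold higher, with CTSO and CD40LG. It had 4.99, 3.10 and 3.40 CPM in the siRNA1, siRNA2 and NTC libraries of replicate 1, and a lowest, median and highest value of 0.0752, 0.123 and 0.180 CPM in the 6 others. The log2 fold change was 4.92 (SE 0.21, adjusted p = 1.93e-07, edgeR). Genes named for their fold change or smallest p had to have sets without overlap, so the separation is not a result for them. NLGN4X, a neuronal adhesion protein, had 1.24, 1.11 and 1.40 CPM in replicate 1 and 0.0376 to 0.132 CPM in the others. Its log2 fold change was 4.17 (SE 0.24). NLGN4X passed the filter on counts only through replicate 1, so no p-value is given. EPB41L2, a membrane skeleton protein, had 1.56, 1.72 and 1.99 CPM against 0.175 to 0.338 CPM. The log2 fold change of EPB41L2 was 2.88 (SE 0.19, adjusted p = 3.63e-06). S100A10, a partner of annexin, was higher as well, at 0.315 to 0.542 against 0.0125 to 0.0239 CPM. Like NLGN4X, S100A10 passed the filter on counts only through replicate 1.

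The decreases reached genes of higher level. LINC01819, a long noncoding RNA (lncRNA) gene on chromosome 2, had the smallest adjusted p of all genes. It had 0.669, 0.860 and 1.18 CPM in replicate 1 and a lowest, median and highest value of 19.0, 26.6 and 31.4 CPM in the 6 others. The log2 fold change was -4.86 (SE 0.14, adjusted p = 3.12e-09, edgeR). The difference between replicates 2 and 3 for this gene was 0.22.

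CCND2, which encodes the G1 cyclin D2, had 0.255, 0.268 and 0.378 CPM in replicate 1 against 3.61, 4.10 and 4.87 CPM as lowest, median and highest of the others. This was 14.1-fold lower in replicate 1, a log2 fold change of -3.82 (SE 0.18, adjusted p = 2.33e-07, edgeR). DACH1, a nuclear regulator of transcription, had 0.0319, 0.0423 and 0.0158 CPM against 1.42 to 1.66 CPM. PRTG, a receptor of the immunoglobulin superfamily, had 0.0531, 0.0987 and 0.0315 CPM against 2.31 to 4.37 CPM. Their log2 fold changes were -5.60 and -5.57. MSR1, a macrophage scavenger receptor, was 30.0-fold lower, at 0.0473 to 0.0744 against 1.69 to 2.28 CPM. DACH1, PRTG and MSR1 passed the filter on counts only through replicates 2 and 3. NFATC4, a calcineurin-dependent transcription factor, had 0.584, 0.522 and 0.583 CPM against 4.73 to 7.61 CPM (-3.46 on the log2 scale).

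KLF2 and its target S1PR1 were also lower. KLF2, a transcription factor of resting T cells, had 1.26, 1.66 and 1.83 CPM in replicate 1 and 8.15, 9.21 and 11.1 CPM as lowest, median and highest of the others. Its log2 fold change was -2.57 (SE 0.15, adjusted p = 1.36e-06, edgeR). S1PR1, the egress receptor that KLF2 is known to activate, had 1.08, 1.41 and 1.43 CPM against 2.86 to 5.27 CPM (log2 fold change -1.68, SE 0.20, adjusted p = 0.000536). In the list of FOXO and quiescence genes, 6 of 24 fell and none rose, beside 3.42% and 3.37% of all genes. The median log2 fold change was -0.21. Without the siRNA1 libraries, 5 fell and the median was -0.23. KLF7 (-1.18) and ARRDC3 (-0.55) were among those that fell. Of 29 integrins, chemokine and egress receptors, S1PR1 and CD44 fell, CXCR6 rose by 0.69 and 26 did not pass.

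**Figure D3:**
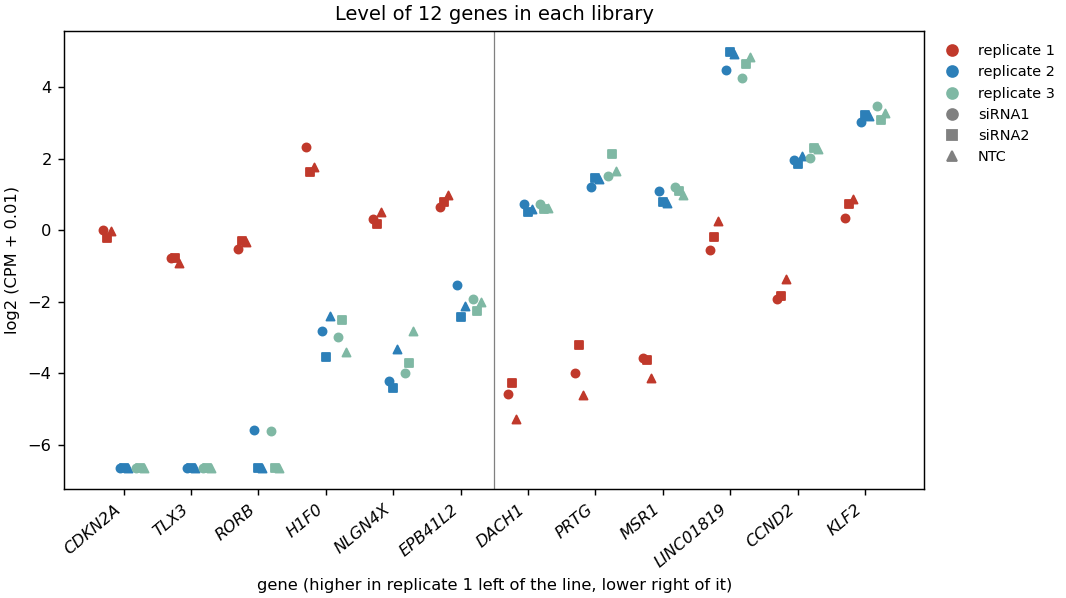
Level of 12 genes in each of the 9 libraries, as log2 of CPM plus 0.01 (y axis), with 1 column per gene, colours for the replicate number and symbols for the siRNA label. The 3 replicate 1 values lie above the 6 others for the genes left of the line and below them for those right of it, and CDKN2A and TLX3 are at 0 in all 6 others.

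Cell-cycle genes of the S phase entry list were mostly higher where they passed. Of 43 G1/S and replication genes, 10 rose and 1, CCND2, fell, beside 3.37% and 3.42% of all genes, and the median log2 fold change was 0.27. Without the siRNA1 libraries 3 rose, 1 fell and the median was again 0.27. CCNE1, the cyclin that starts S phase, had 12.6, 12 and 14.5 CPM in replicate 1 and 5.43, 7.05 and 9.08 CPM as lowest, median and highest of the others (log2 fold change 0.87, SE 0.14, adjusted p = 0.00382, edgeR). Its adjusted p reached 0.0515 without the siRNA1 library of replicate 1, and it also missed the threshold without the NTC library of replicate 1. RRM2, a subunit of ribonucleotide reductase, had 553, 530 and 545 CPM against 255, 316 and 381 CPM (0.77, SE 0.12, adjusted p = 0.00302). Both genes were higher in every replicate 1 library. CDC45, CCNE2, CLSPN, LIG1, RRM1, SLBP, GINS4 and CDT1 were the other members that rose, by 0.30 to 0.62.

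Replicate 2 and replicate 3 did not lie equally far from replicate 1 in these genes. The summed level of the 43 genes was 11629 to 12255 CPM in replicate 1, 9275 to 9524 CPM in replicate 2 and 11007 to 11982 CPM in replicate 3. Replicate 1 thus overlapped replicate 3 and not replicate 2. In the 3-level fit, 36 members were higher and 1 lower against replicate 2, and 14 higher and 1 lower against replicate 3.

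Of 50 G2/M and spindle genes, 1 rose and 2 fell, close to the shares of all genes (3.37% and 3.42%), with a median of -0.13. MYBL2, a transcription factor of proliferating cells, rose to 148 to 158 CPM from 82.1 to 117 CPM (log2 fold change 0.72, SE 0.10, adjusted p = 0.00107, edgeR). CCNB1, the mitotic cyclin, had 107, 83.4 and 91.7 CPM against 136, 167 and 212 CPM, and fell by 0.87 (SE 0.16, adjusted p = 0.00662). HMMR, a spindle protein, fell by 0.59. CCNB1 and HMMR both lie in the distal part of chromosome 5 described further on. The list's sum was 9306 to 10539 CPM in replicate 1, 11377 to 12398 CPM in replicate 2 and 9371 to 9786 CPM in replicate 3. Against replicate 2, 2 members were higher and 30 lower, and against replicate 3, 10 were higher and 4 lower.

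The start regions of the G1/S genes that passed were read from RefSeq (GRCh38.p14), 300 bases for each start, for 8 of the 11 genes. They are shown because genes of this list passed together and many are known targets of E2F factors. The E2F-type words TTTGGCGC, TTTGCCGC, TTTCGCGC and TTTCCCGC were searched on both strands, and no overlap with other motifs was examined. A word stood in the promoters of 3 of the 8 genes, CLSPN, CDT1 and LIG1, beside 3.99% of the 27305 genes in the table. List members that did not pass were not set beside them. The share therefore describes the list and says nothing on the replicate 1 difference. Capitals mark the word, and each sequence runs from 250 bases before the start to 50 after it. CLSPN lies at chr1:35769929-35770228 (minus strand), CDT1 at chr16:88803539-88803838 (plus), LIG1 at chr19:48170295-48170594 (minus) and CCNE1 at chr19:29811741-29812040 (plus).
CLSPN: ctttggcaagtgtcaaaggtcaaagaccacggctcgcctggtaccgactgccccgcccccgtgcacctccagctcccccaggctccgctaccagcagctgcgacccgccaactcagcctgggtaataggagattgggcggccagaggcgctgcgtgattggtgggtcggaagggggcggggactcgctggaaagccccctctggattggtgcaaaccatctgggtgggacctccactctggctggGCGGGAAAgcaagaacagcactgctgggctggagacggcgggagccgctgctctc
CDT1: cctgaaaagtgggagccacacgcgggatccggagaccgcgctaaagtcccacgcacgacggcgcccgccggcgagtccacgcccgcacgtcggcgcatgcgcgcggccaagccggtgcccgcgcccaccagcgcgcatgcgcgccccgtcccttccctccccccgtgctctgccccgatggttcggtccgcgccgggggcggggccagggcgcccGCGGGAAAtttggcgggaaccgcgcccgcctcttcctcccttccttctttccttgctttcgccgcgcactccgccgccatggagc
LIG1: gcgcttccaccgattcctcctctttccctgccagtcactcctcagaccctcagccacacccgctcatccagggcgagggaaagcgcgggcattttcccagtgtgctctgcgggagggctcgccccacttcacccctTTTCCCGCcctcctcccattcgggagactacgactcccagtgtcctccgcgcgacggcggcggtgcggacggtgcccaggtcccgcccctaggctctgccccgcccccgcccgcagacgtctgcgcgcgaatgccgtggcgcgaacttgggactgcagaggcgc
CCNE1: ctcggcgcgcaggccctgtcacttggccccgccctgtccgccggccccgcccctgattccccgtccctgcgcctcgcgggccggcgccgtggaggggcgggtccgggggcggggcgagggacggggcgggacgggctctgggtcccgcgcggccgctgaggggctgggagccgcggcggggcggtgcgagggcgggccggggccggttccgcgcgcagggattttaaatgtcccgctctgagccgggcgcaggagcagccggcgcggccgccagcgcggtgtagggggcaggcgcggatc
CCNE1, which had the largest increase of the list, held none of the 4 words in this window.

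Most histone genes that passed were lower. Of 24 tested, H1F0 and HIST2H2AC rose and 6 core histone genes fell, beside 3.37% and 3.42% of all genes. The median was -0.17, and 1 rose and 3 fell without the siRNA1 libraries. HIST1H2BJ, a core histone gene, had 0.882, 0.803 and 0.662 CPM in replicate 1 against 1.53 to 2.22 CPM (log2 fold change -1.22, SE 0.15, adjusted p = 0.000483, edgeR). HIST1H2AC fell by 0.87 and HIST1H2BG by 1.07. Histone genes have near-identical copies and mostly lack poly(A) tails, so these counts are uncertain.

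Mitochondrially encoded and MHC class I genes that passed were higher in replicate 1. Of the 13 mitochondrial mRNAs, 6 rose and none fell, beside 3.37% and 3.42% of all genes. The median was 0.32, and 1 rose without the siRNA1 libraries. In the 3-level fit the median was 0.20 against replicate 2 and 0.40 against replicate 3. Replicates 2 and 3 also differed from each other, with 7 of the 13 higher in replicate 2 (median 0.29). MT-CO2, a subunit of cytochrome oxidase, was 6128 to 6948 CPM in replicate 1 and 4310.4 to 5766 CPM in the others (0.37, SE 0.08, adjusted p = 0.0196, edgeR). Mitochondrial genes together took 5.40% to 5.83% of gene counts in replicate 1 and 4.24% to 5.58% in the others, so the ranges overlapped (exact permutation test over all 84 splits, two-sided, p = 0.0476, adjusted p = 0.206 over 13 library measures). MHC class I genes rose at 5 of 14 and fell at none (median 0.25), and 1 rose without the siRNA1 libraries. HLA-B, a classical class I heavy chain, had 225, 205 and 219 CPM against 115, 138 and 145 CPM (0.68, SE 0.06, adjusted p = 5.69e-05). HLA-C rose by 0.37. NLRC5, the activator of class I genes, rose by 0.38 and PSMB10, a proteasome subunit, by 0.39. Both lie on chromosome 16, and HLA genes share sequence, which makes their split uncertain.

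GIMAP genes, GTPases of lymphocyte survival, rose at 3 of 7 (median 0.35), beside 3.37% of all genes. In the 3-level fit the median was 0.62 against replicate 2 and 0.22 against replicate 3. Replicates 2 and 3 also differed from each other, with 5 of the 7 lower in replicate 2 (median -0.32). GIMAP5 had 10.8, 12.2 and 13.7 CPM against 5.85 to 9.17 CPM (0.72, SE 0.11, adjusted p = 0.00315, edgeR), and GIMAP7 rose by 0.52. CTSO, a cysteine cathepsin, had the largest increase after H1F0 among protein-coding genes with a mean of at least 1 CPM. It had 8.63, 5.81 and 6.19 CPM against 2.91, 3.06 and 4.30 CPM (1.07, SE 0.12, adjusted p = 0.000242). AFF3, a nuclear factor of lymphoid cells, had 18.9, 24.8 and 23.6 CPM against 10.4 to 15.2 CPM (0.79, SE 0.07, adjusted p = 6.91e-05). MSRB3, a methionine sulfoxide reductase, had 20.9, 20.9 and 22.1 CPM against 9.78 to 12.6 CPM (0.87, SE 0.08, adjusted p = 6.28e-05). CTSO, AFF3 and MSRB3 were picked among genes whose sets did not overlap.

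Thymocyte stage markers fell at 7 of 28 and rose at 2 (median -0.17), beside 3.42% and 3.37% of all genes. Without the siRNA1 libraries 5 fell and none rose. In the 3-level fit, 8 members were higher and 9 lower against replicate 2 (median 0.07), and 4 higher and 16 lower against replicate 3 (median -0.31), so the direction of the median depended on the replicate compared. PTCRA, the surrogate alpha chain of the pre-T cell receptor, had 0.170, 0.141 and 0.110 CPM against 0.431 to 0.774 CPM (-1.99, SE 0.24, adjusted p = 0.000564, edgeR). RAG1, a V(D)J recombinase subunit, had 12.7, 16.9 and 20.9 CPM in the siRNA1, siRNA2 and NTC libraries of replicate 1 and 18.2, 40.7 and 61.6 CPM as lowest, median and highest of the others. The sets overlapped, but within each of the 3 labels replicate 1 was lowest (-1.17, SE 0.18, adjusted p = 0.00279). RAG1 also differed by label, and between replicates 2 and 3 (log2 fold change -0.50, replicate 2 minus replicate 3). RAG2 was also lowest in replicate 1 within each label, and fell by 1.08. It too differed between replicates 2 and 3 (-0.66). SATB1, a chromatin organiser of thymocytes, fell by 0.31. The 2 members that rose were CD69 (log2 fold change 1.32, mean 0.211 CPM) and CD8B (0.42, mean 5.86 CPM). Of 36 T cell receptor complex and signalling genes, 1 passed, UBASH3B, which was higher.

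Glycolysis genes that passed were lower. Of 23 glycolysis genes, 4 fell and none rose (median -0.14), beside 3.42% of all genes lower, and 1 fell without the siRNA1 libraries. PKM, the pyruvate kinase, had 600, 558 and 565 CPM against 782, 915 and 1079.9 CPM (-0.69, SE 0.07, adjusted p = 0.000116, edgeR). PFKFB4 (-1.56) and GPI (-0.31) fell too. Of 20 endoplasmic reticulum chaperone genes, 2 fell and 1 rose, and 1 fell without the siRNA1 libraries. HSPA5, the main chaperone of that compartment, had 225, 220 and 215 CPM against 271, 339 and 353 CPM (-0.56, SE 0.07, adjusted p = 0.000553). Cholesterol synthesis genes fell at 3 of 23 and rose at none. MT1E, a metallothionein, had 0, 1 and 0 counts in replicate 1 and 7 to 28 in the others, through which alone it passed the filter on counts.

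Ribosomal protein genes that passed were lower, and most did not pass. Of 84 cytosolic ribosomal protein genes, 10 fell and none rose (median -0.12), beside 3.42% and 3.37% of all genes. With library size alone as the scaling 16 fell, and 3 fell without the siRNA1 libraries. Mitochondrial ribosomal protein genes rose at 1 and fell at 1 of 78 (median 0.03). RPS23 fell by 0.73 and RPL3 by 0.36. RPS23 and RPS14 are 2 of the 10 and lie in the distal part of chromosome 5. Ribosomal protein genes took 4.89% to 5.40% of gene counts in replicate 1 and 5.44% to 6.10% in the others (exact permutation test, two-sided, p = 0.0119, the smallest that the 84 splits can give, adjusted p = 0.0774). These splits treat the 9 libraries as exchangeable, although same-numbered libraries deviated together, and replicate 1 is a single replicate number, so the p-values of the library measures are too small. Small-nucleolar RNA host genes, lncRNAs whose introns carry guide RNAs for ribosomal RNA, fell at 8 of 22 and rose at 1 (median -0.28), and 1 fell without the siRNA1 libraries. GAS5 had 170, 156 and 169 CPM against 198 to 235 CPM (-0.38, SE 0.07, adjusted p = 0.00869, edgeR). SNHG3 fell by 0.50. Their summed level was 1230 to 1287 CPM in replicate 1 and 1470 to 1598 CPM in the others, with no overlap.

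**Figure D4:**
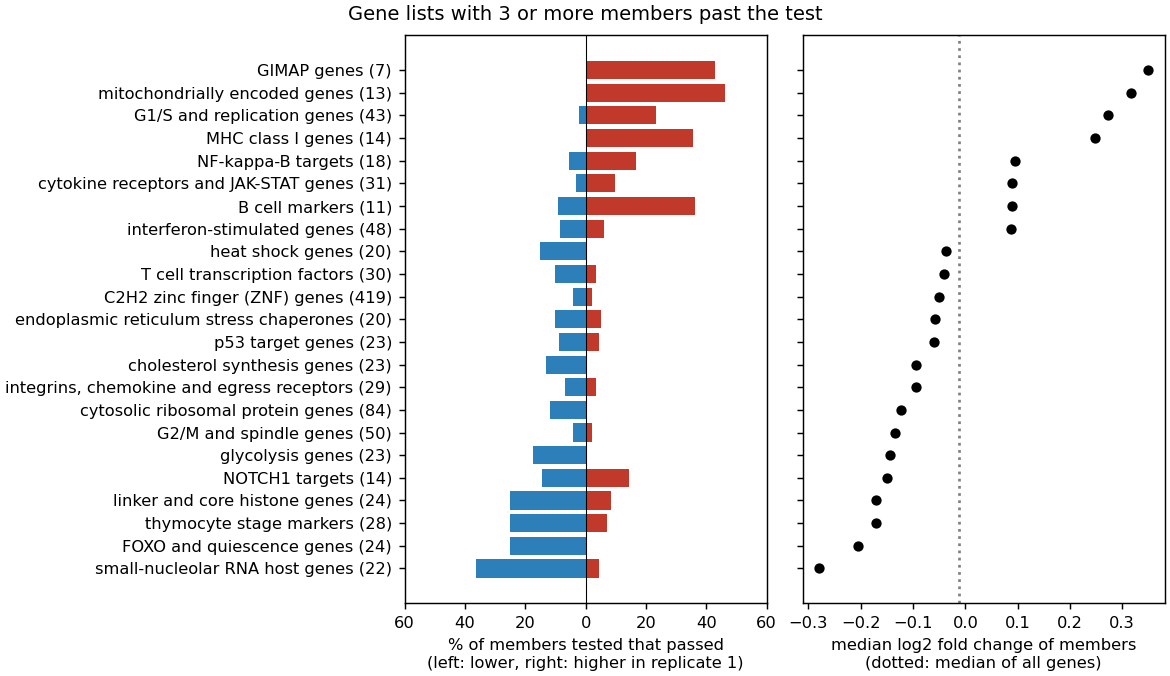
Gene lists with 3 or more members past the test, with the number of members tested in brackets. Left, the percent of members that fell (blue, to the left) or rose (red, to the right) in replicate 1; right, the median log2 fold change of the members, with that of all genes (-0.01) dotted. GIMAP genes (0.35) have the highest median shown and small-nucleolar RNA host genes (-0.28) the lowest.

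Genes differed by chromosome. On chromosome 5, 67 of 796 genes fell and 23 rose, 8.42% lower beside 3.42% of all genes. The shift lay beyond 60 Mb (GRCh38). There, among genes of at least 1 CPM, 56 of 424 fell and 7 rose, the median was -0.14 and 80.0% of fold changes were negative. Before 60 Mb, 1 of 116 fell and 11 rose, with a median of 0.03. All 12 windows of 10 Mb between 60 and 180 Mb had a negative median, from -0.23 to -0.11. The median level of these 424 genes, centred on the mean of the libraries, was -0.09, -0.10 and -0.07 in replicate 1 and 0.01 to 0.10 in the others, without overlap. TLX3, which rose, lies in this part.

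Chromosome 16 moved the other way. Of 925 genes, 67 rose and 13 fell, 7.24% higher beside 3.37% of all genes, and the median was 0.10. Below 20 Mb, 29 of 208 genes of at least 1 CPM rose and 1 fell (median 0.16). The centred median level over the chromosome was 0.06, 0.10 and 0.08 in replicate 1 and -0.16 to 0.01 in the others. The siRNA2 library of replicate 3 was lowest, at -0.16, with the next at -0.04. On chromosome 9, 40 of 680 genes fell and 12 rose. The boundaries at 60 and 20 Mb were set after the values were seen.

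**Figure D5:**
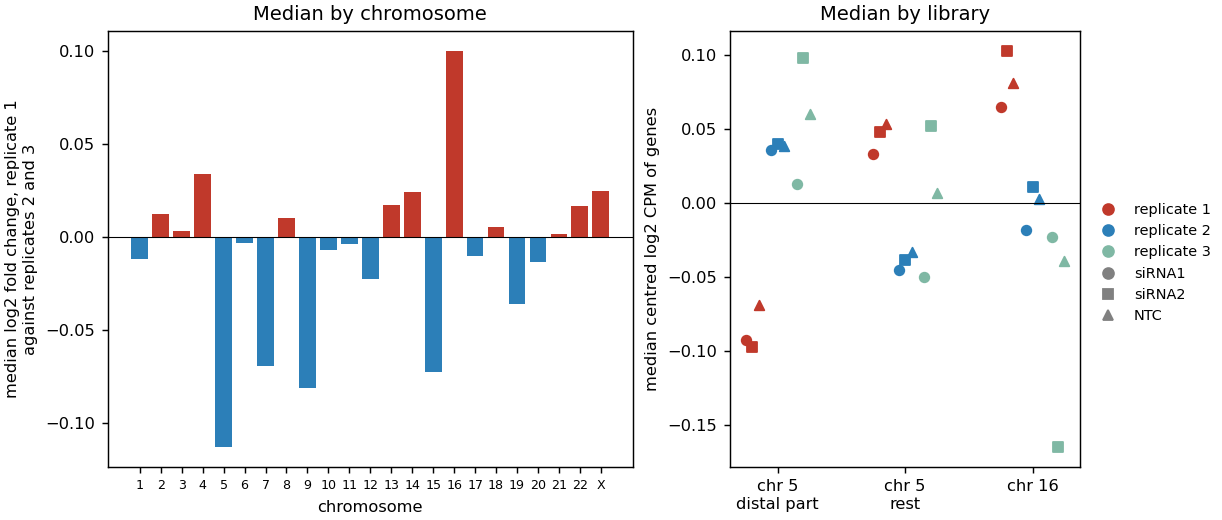
Left, the median log2 fold change of replicate 1 against replicates 2 and 3 (y axis) for the genes tested on each chromosome (x axis). Right, the median centred log2 CPM (y axis) of genes in 3 chromosome parts in each library, where the 3 replicate 1 libraries lie lowest for distal chromosome 5 and highest for chromosome 16.

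Other lists held few genes that passed, beside 3.37% higher and 3.42% lower over all genes. Interferon-stimulated genes rose at 3 of 48 and fell at 4, with IFIT1 down by 0.95 (log2). NF-kappa-B targets rose at 3 of 18 and fell at 1, with LTB up by 0.46 and TRAF1 down by 1.00. NOTCH1 targets rose at 2 and fell at 2 of 14, and cytokine receptor and JAK-STAT genes rose at 3 and fell at 1 of 31. T cell transcription factors rose at 1 and fell at 3 of 30, and p53 targets rose at 1 and fell at 2 of 23. Heat shock genes fell at 3 of 20, with HSPA8 down by 0.29, and at none without the siRNA1 libraries, and zinc finger genes rose at 9 and fell at 18 of 419. No member of the RNA interference (13), ATF4 response (28), fatty acid synthesis (13) or MHC class II (7) lists passed.

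Of 3635 long noncoding genes, 48 (1.32%) rose and 83 (2.28%) fell, both below the shares of all genes (3.37% and 3.42%). AC011379.2 had 1.47, 1.16 and 1.12 CPM in replicate 1 and 0.332 to 0.589 CPM in the others (log2 fold change 1.44, SE 0.17, adjusted p = 0.000337, edgeR). IGFL2-AS1 fell by 3.36 and AC011815.2 by 1.22. These lncRNAs were picked among genes whose sets did not overlap.

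Markers of other cell types were checked in both sets. B cell markers rose at 4 of 11 tested and fell at 1, beside 3.37% and 3.42% of all genes, and 2 rose without the siRNA1 libraries. BLK, a B cell tyrosine kinase, had 0.393, 0.451 and 0.473 CPM against 0.0327 to 0.1 CPM (log2 fold change 2.69, SE 0.30). BLK and CR2, both among the 4 that rose, passed the filter on counts only through replicate 1. Their calls are no separate support, and no p-value is given. CD79A, a B cell receptor chain, had 17.9, 16.5 and 20.4 CPM against 8.62 to 13.8 CPM (0.65). The member that fell was CD79B, the other CD79 chain (log2 fold change -0.48, SE 0.10, adjusted p = 0.0155, edgeR). The summed B list overlapped, at 146 to 242 CPM in replicate 1 and 143 to 265 CPM in the others. Myeloid markers summed to 0.773 to 1.08 CPM in replicate 1 and 1.06 to 1.53 CPM in the others, with S100A8 and S100A9 at 0 counts in every library. Of the 4 tested, CD14, a monocyte receptor, fell by 1.96 (SE 0.47, adjusted p = 0.0277, edgeR). CD14 lies in the distal part of chromosome 5, and it also differed between replicates 2 and 3 (log2 fold change 1.06). NK and cytotoxic markers overlapped (210 to 319 and 200 to 349 CPM), with NCAM1 and NCR1 among 8 members at 0. Erythroid markers overlapped (1366 to 1644 and 1151 to 1731 CPM), with HBA1 at 0. Epithelial and fibroblast markers were 13.0 to 16.7 CPM in replicate 1 and 18.2 to 25.1 CPM in the others, mostly PDGFRB, with KRT18, DCN and PDGFRA at 0. PDGFRB lies in the distal part of chromosome 5 too. The part of these cells in the results was not tested.

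The shares of unmapped reads and of reads outside genes overlapped. Unmapped reads were 1.67%, 1.92% and 1.73% of all reads in replicate 1 and 1.60% to 2.04% in the others, and reads outside genes 8.82% to 9.64% and 8.33% to 10.3%. By quintile of transcript GC content, the median log2 fold change lay between -0.03 and 0.003, and by quintile of length between -0.02 and -0.003. Of 13 library measures, the smallest adjusted p was 0.0774, where 0.0119 is the smallest p that 84 splits can give.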

How the data were processed

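PolyA+ RNA of 9 ALL-SIL libraries was analysed from the deposited counts, which are raw whole-number reads per gene with 1 file for each library. The submitters' processing notes name GRCh38. The names and layout of the deposited files are those of STAR's gene counting, with its version, settings and annotation not given here. The unstranded column was used, without its 4 summary lines. Of 58096 gene identifiers, 57492 matched GENCODE release 29, and the 604 others held 0.0317% of counts. The quasi-likelihood test of edgeR 4.0.16 (R 4.3.3) was fitted on siRNA label and replicate 1, after filterByExpr by label (minimum count 10, minimum total 15) and with TMM factors between 0.975 and 1.04. The threshold was 0.05 on the p-value adjusted by Benjamini-Hochberg. Log2 fold changes have standard errors (SE) from the test's F statistic. The script was tested on simulated data. Log2 CPM for the principal components used a prior count of 2. PCR reads have no molecular identifiers, so counting floors cover counting error only.

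Same-numbered libraries of different labels deviated together from their label means (correlations 0.383 to 0.623 over 9 pairs), so the numbers pair the samples by the data. No 2 libraries of a label were repeats of each other (chi-square per degree of freedom 35.3 to 59.3).

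Named genes were TLX1 and TLX3; up to 12 protein-coding genes each way by fold change with a mean of at least 1 CPM; in each direction the 5 of smallest adjusted p; 5 lncRNAs each way with a mean of at least 0.5 CPM; up to 4 members per list past the test; and genes with at least 10 counts in every library of 1 set and 0 in the other. The first 3 sorts needed sets that did not overlap. Other genes named were list members, genes with few counts or neighbours, chosen after their values were seen. The 43 gene lists and the members were chosen with earlier results of these data known. Alternatives were other scaling, filters, tools (DESeq2 1.42.0, limma 3.58.1), covariates, left-out libraries, strand columns and offsets for GC content and transcript length. Leaving out the siRNA1 libraries was added after seeing the data. Values of a few genes are not reported here.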

Additional observations from a re-analysis of the deposited data

Results flagged for a closer look

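Among the 6 libraries of replicates 2 and 3, 154 results were checked for 1 value far from the other 5, by the ratio of its gap to the whole range (Dixon's test at 95%), and 10 stood out. Chance alone flags about 1 in 20 such groups. The siRNA1 library of replicate 2 was highest for RGS18 (1.58 CPM, next 1.30), CTSO (4.30 CPM, next 3.28) and PTCRA (0.774 CPM, next 0.557). The siRNA1 library of replicate 3 was highest for IL4R (18.2 CPM, next 15.3), TRAF1 (20.3 CPM, next 11.9) and AC011815.2 (1.58 CPM, next 0.980), and lowest for MSRB3 (9.78 CPM, next 11.5). The NTC library of replicate 3 was highest for GIMAP7 (103 CPM, next 84.4). The siRNA2 library of replicate 3 was lowest for the median centred level of chromosome 16 (-0.16, next -0.04) and of its first 20 Mb (-0.22, next -0.06). The 8 genes had been named because they passed the test with all 9 libraries, so their passing is no check on these flags.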

How the results depend on the processing

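The counts of genes higher and lower in replicate 1, 625 and 635, moved by over 1.5 times with no filter beyond 1 count (1012 and 1079), with the replicate block (2022 and 1936), without the label covariate (404 and 407), without the replicate 3 libraries (2688 and 2390), without the replicate 2 libraries (2031 and 2166) and without the siRNA1 libraries (158 and 182, added later). The GC offset moved the higher count alone (1034). The causes were not tested, except that a left-out library leaves fewer samples. Leaving out 1 library at a time gave 112 to 772 higher and 137 to 819 lower: without the siRNA1, siRNA2 or NTC library of replicate 1 the counts were 112 and 144, 151 and 190, and 128 and 137, and without the NTC library of replicate 2 they were 389 and 414. Library size alone gave 469 and 688, so that more genes were lower than higher. RLE factors, the 1 CPM filter, DESeq2, limma-voom, the strand sum and the length offset stayed within 1.5 times. Of 136 named genes that passed, 49 passed in every one of the 23 alternatives that gave a value, none changed sign, and the replicate block lost none. Without 1 replicate 1 library, 67 to 76 of them no longer passed. As a share of all reads instead of gene counts, the mitochondrial difference was 0.691 percentage points (exact permutation p = 0.0595) against 0.911 (p = 0.0476). Depth limits genes below about 1 CPM, where most of the large increases lie by their mean over the 9 libraries.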
